A study of Rattus norvegicus with 39 samples.

Results

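Hippocampal CA1 tissue of rats without adrenal glands that carried a low-dose corticosterone pellet and were then injected with corticosterone (LowInj) was compared with CA1 tissue of intact rats (Sham). The members were taken from the sample titles as the arrays titled LowInj and those titled sham, which gave 10 and 10 arrays, 20 of the 39 in the series, with 1 array per animal. All rats were male Fischer 344 animals that were 18 months old at death and had been housed singly after pellet surgery. LowInj rats were adrenalectomized, carried a 25 mg corticosterone pellet for 3 months, drank saline with sucrose, and were given daily intraperitoneal injections of 5 mg of corticosterone on 4 days at the end. Before the pellet, the adrenalectomized animals had also been supported with mash, apple and injections of a corticosteroid. Sham rats were operated without loss of the adrenals and carried a pellet with no hormone. The descriptions name no injections for Sham rats. Adrenalectomy, the pellet, the drinking fluid and the injections therefore separate the groups together, and their shares cannot be told apart in this pair. The other adrenalectomized rats, LowCORT (10 arrays, 25 mg pellet and no injections) and IntermediateCORT (9 arrays, 200 mg pellet), serve below to show where the LowInj and Sham levels lie. The series addresses which hippocampal transcripts depend on glucocorticoids.

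Corticosterone, the main glucocorticoid of the rat, enters cells and binds the mineralocorticoid receptor with high affinity and the glucocorticoid receptor with lower affinity. CA1 pyramidal neurons carry both. The bound receptors act as transcription factors, and the glucocorticoid receptor also restrains other factors such as NF-kappaB. Release follows the time of day and stress in an intact rat, whereas a slow-release pellet gives a steady supply and an injection a peak.

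The values were log2 expression levels of 8740 probe sets, of which 7006 carried 1 gene symbol and stood for 4736 genes. Correlations between the 20 arrays over all probe sets were 0.975 to 0.998, no array was a copy of another, and the array medians lay between 7.28 and 7.33. On the first principal component after removal of group means (28.4% of the variance), 3 arrays stood apart, Sham subject 6 and LowInj subjects 34 and 35, with scores of 19.8 to 23.8, while the others ran from -14.9 to 4.62. The difference between 3' and 5' probe sets of Gapdh, a sign of RNA or cDNA length, was 1.03 ± 0.60 in LowInj and 0.70 ± 0.22 in Sham (SD, n = 10 each). A two-sided permutation test gave p = 0.112 for it, and p = 0.669 for beta-actin, or 0.224 and 0.669 after adjustment over the pair of measures. The 3 arrays that stood apart had the lowest beta-actin differences of the 20, at 0.04 to 0.17, with the next array at 0.20. Their Gapdh differences were 0.96 (Sham subject 6), 1.04 (LowInj subject 34) and 2.41 (LowInj subject 35), while the other arrays reached 1.56. Of 16 markers of CA1 pyramidal neurons, 8 were measured under a symbol of their own, among them Camk2a, with a mean level of 7.70 in LowInj and 7.78 in Sham. Wfs1 and Fibcd1, which define CA1 more sharply, were not analysed here.

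The promoters of Sgk1 and Sult1a1 are shown because both genes are known to be induced by glucocorticoids, and in these tissues they stood at different places between the groups. Sgk1 encodes the serum- and glucocorticoid-regulated kinase, which acts on ion channels and transporters. Sult1a1 encodes a sulfotransferase of phenols. Each window runs from 250 bases before to 50 bases after the annotated start, is read 5′ to 3′ on the gene's strand, and comes from RefSeq on the GRCr8 assembly. The Sgk1 window lies at chr1:24804782-24805081 and the Sult1a1 window at chr1:190706063-190706362, both on the minus strand. Capitals mark the hexamer AGAACA, 1 arm of the palindrome that the glucocorticoid receptor binds.
Sgk1: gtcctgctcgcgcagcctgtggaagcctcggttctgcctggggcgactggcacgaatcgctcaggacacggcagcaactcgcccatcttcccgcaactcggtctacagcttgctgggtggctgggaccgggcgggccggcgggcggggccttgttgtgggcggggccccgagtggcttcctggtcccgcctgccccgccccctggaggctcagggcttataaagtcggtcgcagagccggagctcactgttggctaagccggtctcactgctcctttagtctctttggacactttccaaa
Sult1a1: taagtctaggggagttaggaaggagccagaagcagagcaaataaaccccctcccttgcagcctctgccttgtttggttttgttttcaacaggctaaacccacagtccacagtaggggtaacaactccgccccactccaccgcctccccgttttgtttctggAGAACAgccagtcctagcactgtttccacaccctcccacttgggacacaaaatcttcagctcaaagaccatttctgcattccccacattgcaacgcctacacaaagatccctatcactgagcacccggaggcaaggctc
The Sult1a1 window held 1 such hexamer, which starts at base 162 of the window. None of the 3 windows listed for Sgk1 held AGAACA on either strand. Among all 33469 windows 20.7% held the hexamer on 1 strand or the other. Counted by gene, with a match in any window of the gene, 1 of 17 glucocorticoid-induced targets with a window held it, which was Sult1a1. The share of windows and the share of genes are unlike measures. The full palindrome, with both arms 3 bases apart, contains the hexamer and was found in 5 windows of the table (0.0149%) and in 0 of the 17. These are matches of letters in short windows and say nothing of where the receptor sits.

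Between LowInj and Sham, Sgk1 was the 1 transcript that passed the test, and it was lower in LowInj. Sgk1 levels in LowInj rats were 7.78 at the lowest, 7.96 at the median and 8.48 at the highest. In Sham rats they were 8.45, 9.47 and 10.25. The groups overlapped at a single point, since 9 of 10 LowInj rats lay below the lowest Sham rat, and all 10 lay below the Sham mean. The mean was 8.05 ± 0.27 in LowInj and 9.43 ± 0.59 in Sham (SD, n = 10 each). The difference was -1.38 (SE 0.19, 95% interval -1.77 to -0.99, limma adjusted p = 0.00234), or 2.61-fold lower. A two-sided permutation test on Sgk1 alone gave p = 3e-05. That p is not adjusted for the 8740 probe sets and comes from the same arrays, so it is no separate support. Without the 3 arrays that stood apart, an alternative chosen after seeing the data, Sgk1 differed by -1.49 (adjusted p = 0.00638) and 4 probe sets passed, the others being both of Dbp and 1 of Fabp7. Over all 8740 probe sets, 1 was called lower (0.0114%) and 0 were called higher (0%) by limma at an adjusted p under 0.05. At an unadjusted p under 0.05 there were 130 lower (1.49%) and 229 higher (2.62%). In no probe set were the groups fully apart. The median difference over all probe sets was 0.00, with quartiles of -0.04 and 0.05, and 21 probe sets lay beyond 0.5 in either direction.

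**Figure D1:**
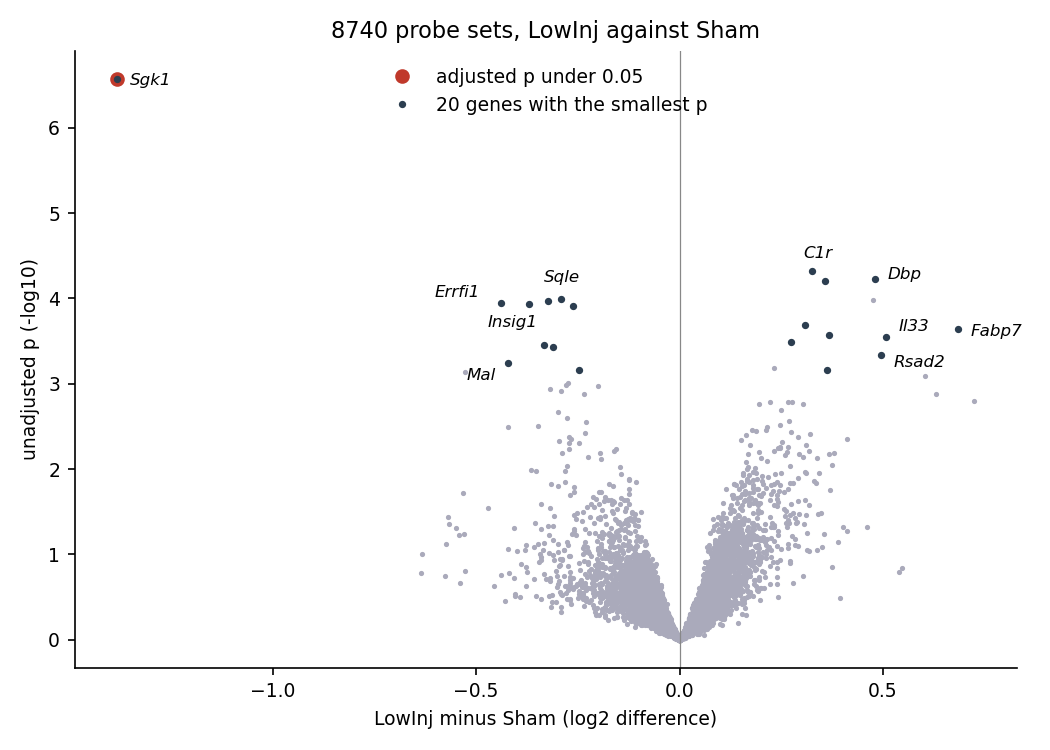
Each point is 1 of 8740 probe sets. The x axis gives the log2 difference LowInj minus Sham and the y axis the unadjusted limma p as -log10. Sgk1, in red, is the only probe set past an adjusted p of 0.05, and the dark points are the 20 genes with the smallest p.

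Sgk1 within the Sham group followed the subject numbers. Sham subjects 1 to 5 held levels of 9.53 to 10.25 and subjects 6 to 10 levels of 8.45 to 9.41, which do not overlap. LowInj subjects 30 to 34 held 7.79 to 8.33 and subjects 35 to 39 held 7.78 to 8.48. The sources used here do not say what the subject number stands for. With the order of subjects as a covariate, the limma adjusted p for Sgk1 was 0.000505. That term was balanced between the groups, so it could change the spread but not the difference of -1.38. It therefore does not show whether the difference depends on order. Hbb, a haemoglobin chain, averaged 0.72 above Sham in LowInj without passing (adjusted p = 0.412). With the Hbb level as a covariate, chosen after seeing the data, the Sgk1 difference was -1.24 and did not pass (adjusted p = 0.0946).

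The level of Sgk1 in LowInj rats lay near that of LowCORT rats. LowCORT rats had 7.73, 7.91 and 8.27 as the lowest, median and highest values, and IntermediateCORT rats had 8.11, 8.54 and 9.70. In order of their means the groups ran LowCORT (7.93 ± 0.17), LowInj (8.05 ± 0.27), IntermediateCORT (8.64 ± 0.47, n = 9) and Sham. A fit over all 39 arrays put LowInj 0.12 above LowCORT (SE 0.17, adjusted p = 0.909) and gave -0.59 for LowInj minus IntermediateCORT (SE 0.18, adjusted p = 0.197). Neither of those neighbours was told apart from LowInj. LowCORT minus Sham was -1.50 and IntermediateCORT minus Sham was -0.79 (adjusted p = 0.222) in the same fit. These last 2 comparisons share the Sham arrays with that of LowInj.

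Sult1a1 gave the other picture. Its level in LowInj rats ran from 8.00 through a median of 8.32 to 8.69, and in Sham rats from 8.04 through 8.29 to 8.64. The groups covered nearly the same range, with a difference of 0.03 (95% interval -0.13 to 0.20, adjusted p = 0.999). LowCORT rats lay at 6.94, 7.37 and 7.75, below every LowInj rat. In the 39-array fit LowInj exceeded LowCORT by 1.01 (adjusted p = 2.7e-07). A further probe set of Sult1a1 had LowInj 0.12 from Sham (95% interval -0.17 to 0.41) and LowInj above LowCORT by 1.82 (adjusted p = 4.75e-08). The comparisons of LowInj with LowCORT called 22 of 8740 probe sets (0.252%), 10 higher (0.114%) and 12 lower (0.137%) in LowInj.

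**Figure D2:**
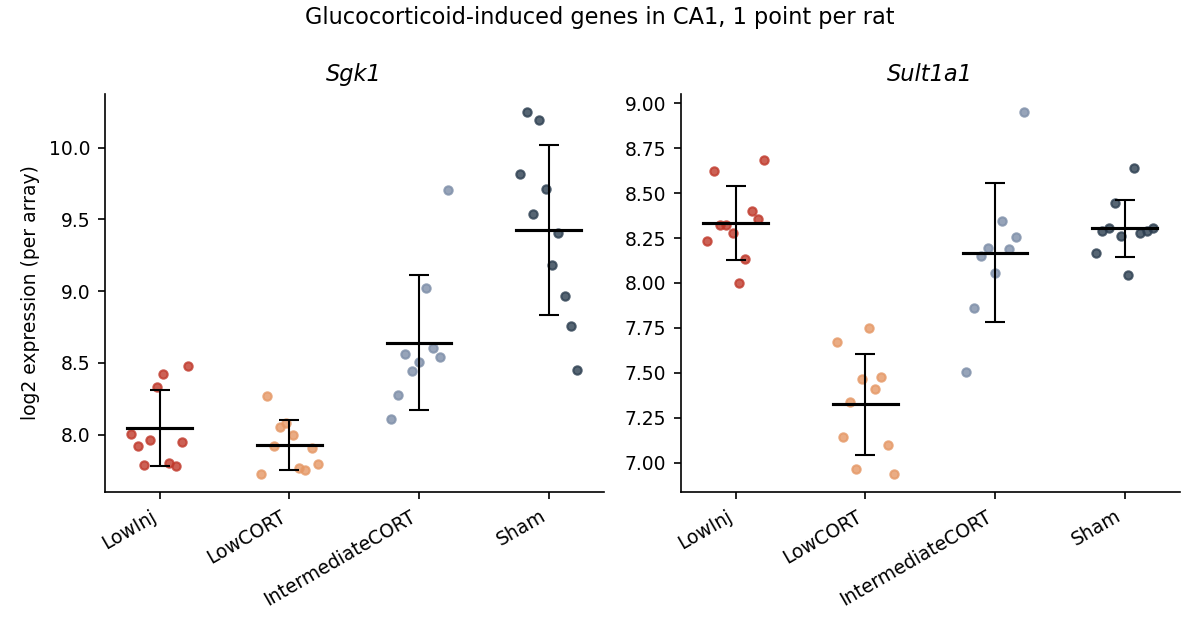
Log2 expression of Sgk1 (left) and Sult1a1 (right) in CA1, with 1 point per rat, the mean as a bar and the SD as whiskers, in LowInj, LowCORT, IntermediateCORT and Sham. Sgk1 in LowInj (8.05) sits near LowCORT (7.93) and below Sham (9.43), whereas Sult1a1 in LowInj lies at 8.00 to 8.69, over the Sham range of 8.04 to 8.64.

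Of the 19 measured genes on a list of glucocorticoid-induced targets, 1 fell (Sgk1), 0 rose and 18 did not pass. Of the 19, 12 lay below 0 and 7 above, with a median difference of -0.02, beside 0.00 over all probe sets. At an unadjusted p under 0.05 there were 5 lower and 0 higher, beside 1.49% and 2.62% over all probe sets. Il6r, the receptor subunit for interleukin-6, had 6.47, 6.80 and 6.97 in LowInj and 6.75, 7.10 and 7.37 in Sham (lowest, median, highest). Its difference was -0.33 (SE 0.08, adjusted p = 0.19), and 10 of 10 LowInj rats lay below the Sham mean. Nfkbia, the inhibitor that holds NF-kappaB in the cytoplasm, differed by -0.32 (SE 0.09, adjusted p = 0.357), again with 10 of 10 below the Sham mean. Pdk4, a kinase that inhibits pyruvate dehydrogenase, differed by -0.16 (adjusted p = 0.999).

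Errfi1 encodes an inhibitor of the epidermal growth factor receptor, and Klf9 a zinc finger transcription factor. Both have several probe sets that give different sizes. For Errfi1 the differences were -0.44 (SE 0.09, adjusted p = 0.107), -0.19 and -0.12. The first of these had 6.82, 7.11 and 7.28 in LowInj and 7.10, 7.60 and 8.04 in Sham, with 5 LowInj rats below the lowest Sham rat. LowCORT rats ran from 6.92 to 7.30 in the same probe set. For Klf9 they were -0.25 (SE 0.06, adjusted p = 0.274) and -0.16. In its first probe set, LowInj rats had 8.26, 8.45 and 8.65, and Sham rats 8.30, 8.72 and 8.83. Fkbp5, Tsc22d3 and Per1 were not analysed here.

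The receptors themselves gave no call, where 1 of 8740 probe sets (0.0114%) was called in all. Nr3c1, the glucocorticoid receptor, differed by 0.01, 0.10 and -0.02 in its probe sets, and Nr3c2, the mineralocorticoid receptor, by 0.16 and 0.06 (adjusted p = 0.999 for each). Hsd11b1, the enzyme that regenerates active corticosterone, had 10.12, 10.41 and 10.67 in LowInj and 10.04, 10.40 and 10.64 in Sham, a difference of 0.00 after rounding (95% interval -0.16 to 0.15). Of 13 measured genes of receptors and their regulators, 5 lay above 0 and 8 below, with a median of 0.00. Crhbp, which binds corticotropin-releasing hormone, differed by -0.16 (SE 0.06, adjusted p = 0.965).

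Genes of cholesterol synthesis lay below Sham in most cases, though none passed in the main fit of the pair. In an alternative fit with array weights, which called 26 probe sets, Sqle, Insig1, Acat2 and Msmo1 passed (limma adjusted p = 0.0261 to 0.0497). Of 15 measured genes, 12 were lower and 3 higher in LowInj, with a median difference of -0.15. Of these, 6 were lower and 0 higher at an unadjusted p under 0.05, beside 1.49% and 2.62% over all probe sets. The mean level of the list was 8.26 to 8.56 (median 8.38) in LowInj and 8.47 to 8.66 (median 8.57) in Sham, so the ranges touched only in part. In 13 of these genes with a window in the promoter table, 0 held TCACNCCAC, a form of the sterol regulatory element, which 1.12% of all windows held on 1 strand or the other. Genes and windows are unlike measures here too, and 0 of 13 cannot be told apart from so small a share.

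Msmo1, a methylsterol oxidase, had 10.24, 10.47 and 10.70 in LowInj and 10.59, 10.68 and 10.97 in Sham (lowest, median, highest). That left 9 LowInj rats below the lowest Sham rat, with a difference of -0.26 (SE 0.06, adjusted p = 0.107), and -0.47 in a further probe set. Sqle, the squalene epoxidase, had 8.68, 8.96 and 9.14 in LowInj and 9.05, 9.25 and 9.41 in Sham. It differed by -0.29 (SE 0.06, adjusted p = 0.107), with 7 LowInj rats below the lowest Sham rat. Insig1 encodes a protein that keeps the sterol-sensing transcription factor complex in the endoplasmic reticulum. It had 8.25, 8.68 and 8.97 in LowInj and 8.78, 9.07 and 9.32 in Sham, and differed by -0.37 (SE 0.08, adjusted p = 0.107), with 6 LowInj rats below the lowest Sham rat. Acat2, the cytosolic acetoacetyl-CoA thiolase, differed by -0.31 (SE 0.07, adjusted p = 0.19). Fdft1, the squalene synthase, differed by -0.35, Idi1, the isopentenyl diphosphate isomerase, by -0.20 and Cyp51, the lanosterol demethylase, by -0.15. The 3 genes above 0 were Srebf1 (0.12), Ebp (0.02) and Lss (0.01).

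Insig1 was lower in LowInj than in IntermediateCORT, where the 39-array fit gave -0.40 (adjusted p = 0.0162). Against LowCORT it gave -0.09 (adjusted p = 0.82). LowInj against IntermediateCORT called 10 of 8740 probe sets (0.114%), 6 higher (0.0686%) and 4 lower (0.0458%) in LowInj. For Msmo1 and Sqle the differences from IntermediateCORT were -0.14 and -0.22 (adjusted p = 0.539 and 0.241). LowCORT rats had 10.31 to 10.77 for Msmo1 and 8.64 to 9.17 for Sqle, near the LowInj ranges of 10.24 to 10.70 and 8.68 to 9.14.

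**Figure D3:**
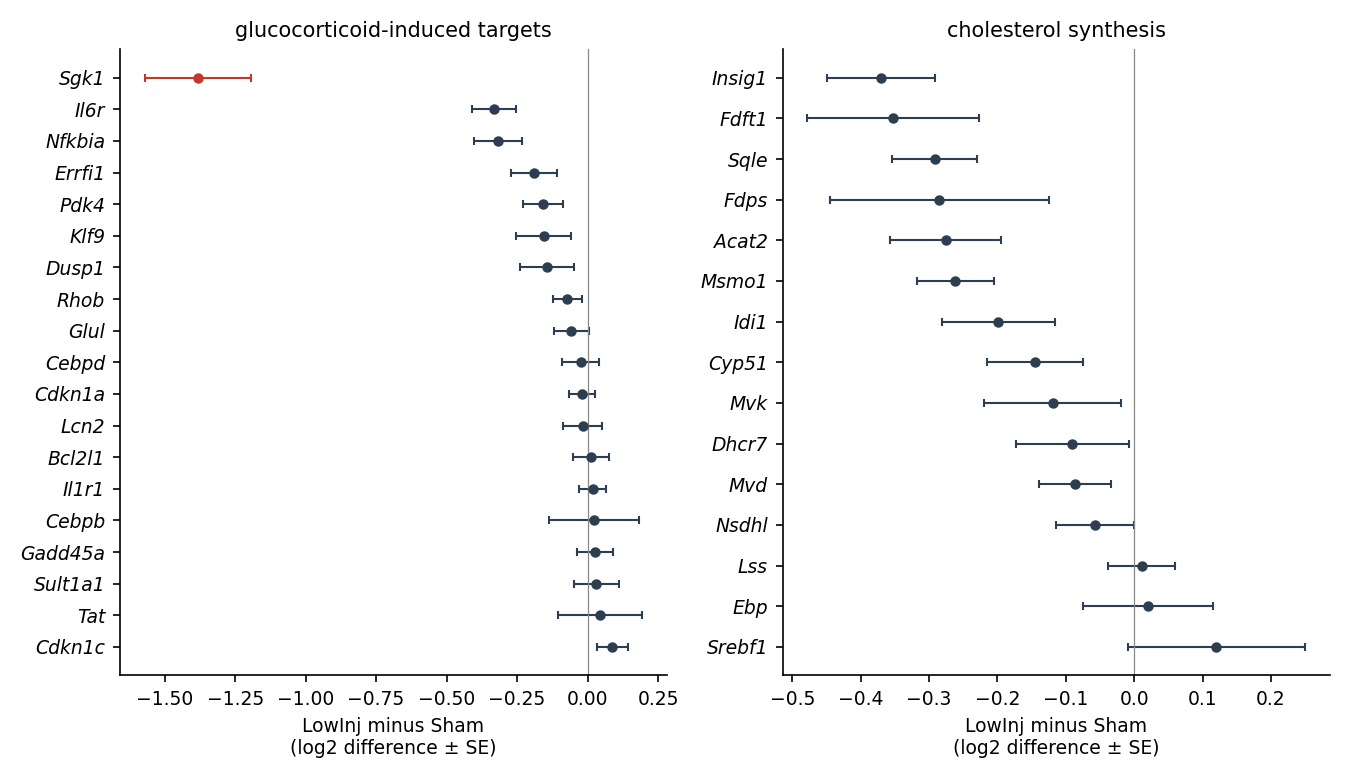
LowInj minus Sham (log2 difference ± SE from limma) for each measured gene of the glucocorticoid-induced targets (left, 19 genes) and of cholesterol synthesis (right, 15 genes). Sgk1, in red, is the only gene past the test; 12 of the 15 cholesterol genes lie below 0.

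Among clock genes, Dbp had the smallest p. Dbp encodes a transcription factor whose RNA follows the time of day, driven by the core clock. Its first probe set had 7.95, 8.18 and 8.77 in LowInj and 7.43, 7.80 and 8.25 in Sham (lowest, median, highest). All 10 LowInj rats lay above the Sham mean and 4 above the highest Sham rat. Both probe sets of Dbp differed by 0.48 (SE 0.10, adjusted p = 0.107). Without Sham subject 6, whose level of 8.25 was the highest of its group, both passed, the first with a difference of 0.53 (adjusted p = 0.0251). The arrays of Sham subject 6 and LowInj subjects 34 and 35, which stood apart, held 8.25, 8.54 and 8.77. Without all 3 of them, the difference was 0.43 (adjusted p = 0.00715). LowCORT rats had a mean of 8.19 and IntermediateCORT rats of 7.99 in the first probe set. Of 11 clock genes measured, 7 lay above 0 and 4 below, with a median of 0.02. Nr1d1, a nuclear receptor that represses the core clock, differed by 0.34 (SE 0.12) and 0.19 in its probe sets, and Bhlhe40, a repressor of the same loop, by -0.30 (SE 0.11), or -0.24 without those 3 arrays. Per2 differed by 0.13 and Bmal1 by -0.12. All animals were killed in the morning, but over more than 1 day, and the sources used here do not give the day of each animal.

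Hk2, a hexokinase that starts glucose use, gave opposite signs in its probe sets. In 1 of them LowInj rats had 7.06, 7.20 and 7.53 and Sham rats 6.66, 6.94 and 7.10, with 8 LowInj rats above the highest Sham rat. That difference was 0.36 (SE 0.07, adjusted p = 0.107), and the further probe set gave -0.10 (SE 0.06, adjusted p = 0.999). In the first, LowCORT lay higher still, with a mean of 7.53, and LowInj minus LowCORT was -0.27 (adjusted p = 0.0677). Of 29 glycolysis genes 11 lay above 0 and 18 below, with a median of -0.02.

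C1r, Il33, Tnfrsf11b and S100a4 were among the 20 genes with the smallest p, and none of them passed in the pair. C1r, a protease of the complement cascade, had 6.89, 7.17 and 7.46 in LowInj and 6.64, 6.86 and 7.03 in Sham (lowest, median, highest). It differed by 0.32 (SE 0.06, adjusted p = 0.107), with 8 LowInj rats above the highest Sham rat. Il33, a cytokine of the interleukin-1 family held in nuclei of glia, had 7.13, 7.45 and 8.08 in LowInj and 6.54, 7.04 and 7.30 in Sham, and differed by 0.51 (SE 0.12, adjusted p = 0.178). Its level in LowInj exceeded IntermediateCORT by 0.62 (adjusted p = 0.00667) and LowCORT by 0.40 (adjusted p = 0.0863). Tnfrsf11b, a decoy receptor for a tumour necrosis factor ligand, differed from Sham by 0.31 (SE 0.07, adjusted p = 0.164) and from IntermediateCORT by 0.30 (adjusted p = 0.0252). LowCORT rats had Tnfrsf11b levels of 7.29 to 7.54, within the LowInj range of 6.96 to 7.66 and above every Sham rat (6.92 to 7.20). S100a4, a calcium-binding protein, differed from Sham by 0.37 (SE 0.08, adjusted p = 0.178).

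Of 18 measured genes of the interferon response, 14 lay above 0 and 4 below, with a median of 0.05, and 4 were higher at an unadjusted p under 0.05, beside 2.62% over all probe sets. Rsad2, an antiviral enzyme, had 6.27, 6.62 and 7.40 in LowInj and 5.72, 6.14 and 6.63 in Sham. Its probe sets differed by 0.50 (SE 0.12, adjusted p = 0.223) and 0.23. Irf7, a transcription factor of the pathway, differed by 0.20 in 1 probe set and -0.05 in the other. Slfn5 and Ifitm3, both induced by interferon, lay between LowCORT and Sham. Slfn5 had medians of 8.12 in LowInj, 8.53 in LowCORT and 7.91 in Sham, and Ifitm3 had medians of 8.31, 8.65 and 8.04 in the same groups. LowInj minus LowCORT was -0.35 for Slfn5 (adjusted p = 0.0376) and -0.41 for Ifitm3 (adjusted p = 0.0184), and LowInj minus Sham was 0.25 and 0.24 (adjusted p = 0.719 and 0.999). With the Hbb level as a covariate these last differences were 0.15 for Slfn5 and 0.05 for Ifitm3. Car4, a membrane carbonic anhydrase of vessels and glia, showed the same order, with LowInj minus LowCORT at -0.34 (adjusted p = 0.000464) and LowInj minus Sham at 0.20 (adjusted p = 0.412).

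Fabp7, a fatty acid binding protein of astrocytes, had the largest difference above 0 among the 20 genes with the smallest p. LowInj rats had 8.26, 8.91 and 9.56 and Sham rats 7.47, 8.18 and 8.56, with 7 LowInj rats above the highest Sham rat. The difference was 0.68 (SE 0.16, adjusted p = 0.168), or 0.73 (adjusted p = 0.0497) without the 3 arrays that stood apart, and LowInj exceeded IntermediateCORT by 0.83 (adjusted p = 0.0162). Most of the other astrocyte markers lay below 0, none of them at an unadjusted p under 0.05 by limma. Of 16 on the list 4 lay above 0 and 12 below, with a median of -0.04. At that threshold 2 were higher and 0 lower, beside 2.62% and 1.49% over all probe sets. Gja1, the gap junction protein, had -0.53 with an SE of 0.36, or -0.08 with the Gapdh and beta-actin differences as covariates. Vim, an intermediate filament, differed by 0.38 (SE 0.13, adjusted p = 0.872). In bulk tissue such as this, fewer cells of a type and less RNA per cell cannot be told apart.

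Grifin, a galectin-related protein known from the lens, was higher in LowInj than in each of the other adrenalectomized groups. It had 7.18, 7.33 and 7.73 in LowInj and 6.89, 7.11 and 7.29 in Sham, with 8 LowInj rats above the highest Sham rat. The differences were 0.34 from LowCORT (adjusted p = 0.000599), 0.27 from IntermediateCORT (adjusted p = 0.0468) and 0.27 from Sham (SE 0.06, adjusted p = 0.188). Eva1a, Mal and Ssh3 completed the 20 genes with the smallest p. Eva1a, a membrane protein of autophagy, differed by -0.32 (adjusted p = 0.107), Mal, a proteolipid of myelin, by -0.42 (adjusted p = 0.266) and Ssh3, a phosphatase of the actin regulator cofilin, by 0.36 (adjusted p = 0.274). The Eva1a probe set was dim, with means of 5.19 in LowInj and 5.51 in Sham, below the 30th percentile of levels (6.29). LowCORT rats had 4.91 to 5.28 for Eva1a, beside 4.98 to 5.38 in LowInj and 5.27 to 5.81 in Sham. Of 12 myelin genes measured, 4 lay above 0 and 8 below, with Mbp at -0.04 and Mobp at -0.03. At an unadjusted p under 0.05 by limma 2 were lower (Mal and Cryab) and 1 higher (Car2), beside 1.49% and 2.62% over all probe sets. Cryab differed by -0.32 and -0.35 in its probe sets, and Car2 by 0.18 and -0.03.

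**Figure D4:**
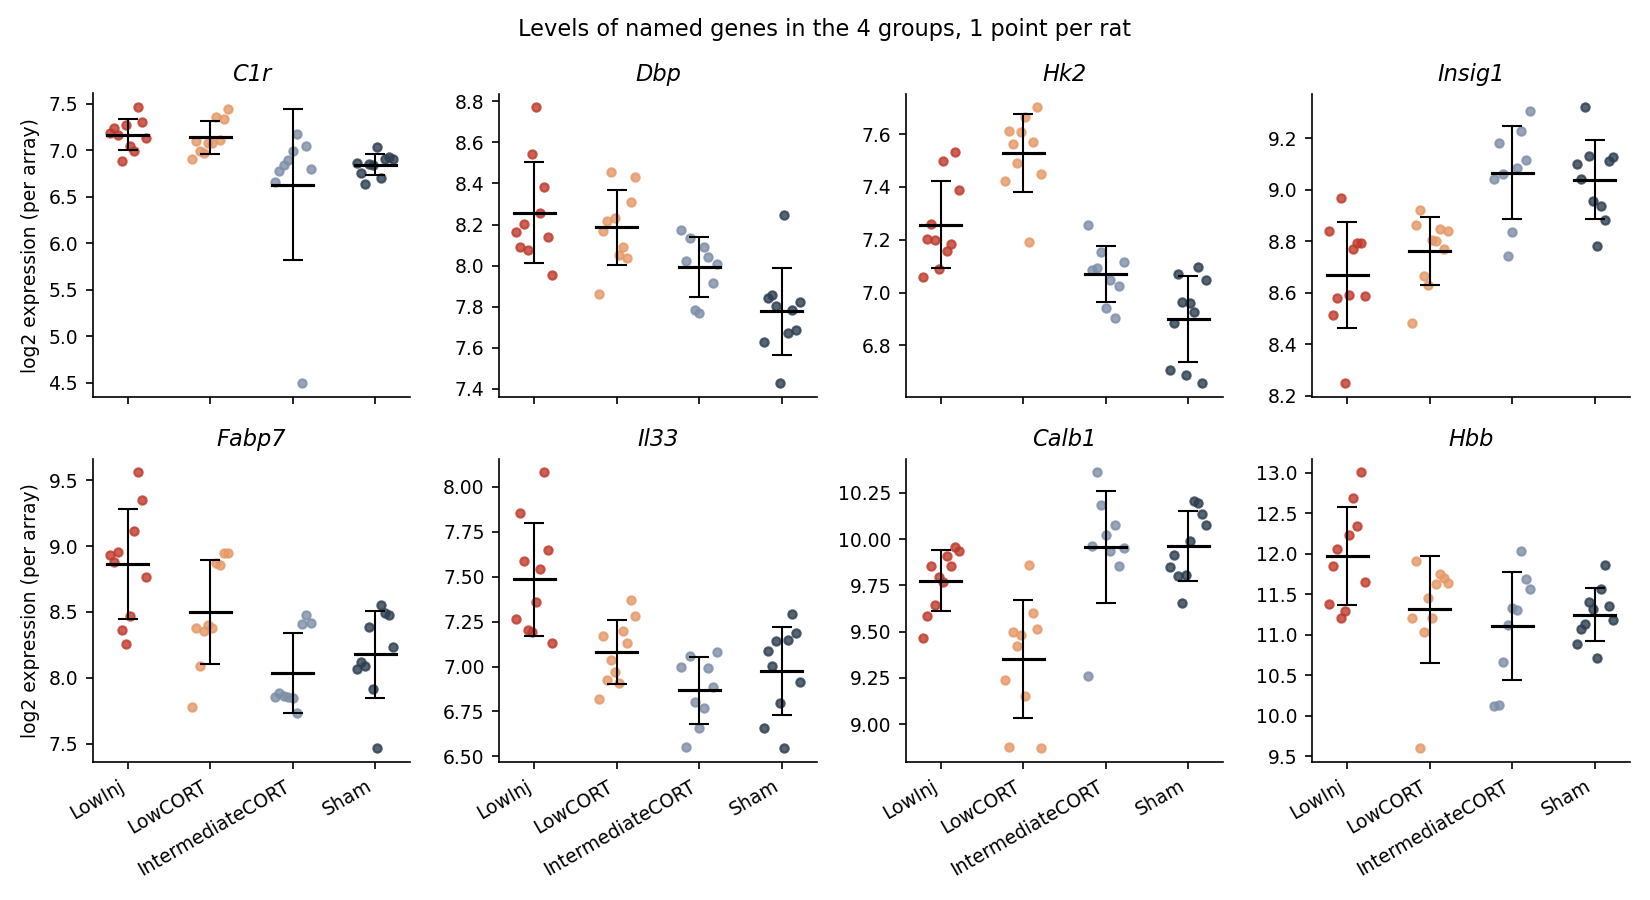
Log2 expression of 8 named genes with 1 point per rat, the mean as a bar and the SD as whiskers, in LowInj, LowCORT, IntermediateCORT and Sham. C1r, Dbp and Hk2 in LowInj lie among LowCORT levels or between LowCORT and Sham, while Fabp7 (median 8.91) and Il33 (median 7.45) have their highest medians in LowInj. The low C1r point is 1 IntermediateCORT rat at 4.49.

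When all 39 arrays shared 1 estimate of the spread, LowInj against Sham gave 11 calls of 8740 (0.126%), 6 higher (0.0686%) and 5 lower (0.0572%), with the same differences. Besides Sgk1 they were both probe sets of Dbp and 1 each of Hk2 and Errfi1 (adjusted p = 0.00613 for all), Tnfrsf11b (0.0101), Eva1a (0.0127), Insig1 and Il33 (both 0.0143), Grifin (0.0187) and Nfkbia (0.0304). LowCORT against Sham gave 123 calls (1.41%) in that fit and IntermediateCORT against Sham gave 1 (0.0114%).

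Neuronal lists held no call, beside 1 call in all 8740 probe sets (0.0114%). Of 18 interneuron markers, 3 lay above 0 and 15 below, with a median of -0.07. The list level was 8.41 to 8.57 in LowInj and 8.50 to 8.67 in Sham. Gad1, which makes GABA, differed by -0.14 (SE 0.06), Kcnc2, a fast potassium channel, by -0.25 (SE 0.12), and Vip, a neuropeptide, by -0.26 (SE 0.12), each at an adjusted p of 0.999. Sst differed by -0.01 and Npy by 0.03. Of 13 general neuronal markers 11 lay below 0, with a median of -0.11, and Snap25, a protein of vesicle fusion, had -0.32 (SE 0.15). The presynaptic list had 23 of 36 below 0 and a median of -0.05, which was -0.11 over all probe sets of these genes and turned to 0.02 with the Hbb level as a covariate. These lists stand beside a Gapdh 3' to 5' difference that averaged 0.33 more in LowInj. With the Gapdh and beta-actin differences as covariates, the medians were -0.08 for interneurons, -0.07 for general neuronal markers and -0.03 for the presynaptic list.

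Calb1, the calcium buffer calbindin, had 9.46, 9.82 and 9.96 in LowInj and 9.66, 9.95 and 10.21 in Sham, a difference of -0.19 (adjusted p = 0.999), and all 10 LowInj rats lay below the Sham mean. LowInj minus LowCORT was 0.42 for it (adjusted p = 0.0863). Of 21 immediate early genes 0 had an unadjusted p under 0.05 by limma, with Fos at -0.07, Arc at -0.09, Egr1 at -0.13 and Jun at 0.16. Glutamate receptors (36 measured, median 0.01), GABA receptors (16, median -0.01), respiratory chain subunits (26, median -0.01) and ribosomal proteins (36, median 0.00) also held 0 genes at an unadjusted p under 0.05. Over all probe sets 1.49% were lower and 2.62% higher at that threshold, so 0 in lists of these sizes lies near that share. Further probe sets of Grin2c (0.16) and Rps15 (-0.36), not the ones counted in the lists, had an unadjusted p under 0.05 by limma.

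Blood and border cells were read from their markers. Of 11 blood cell markers 8 lay above 0, 5 of them at an unadjusted p under 0.05, beside 2.62% of all probe sets, with a median of 0.03. Hbb had 11.20, 11.96 and 13.01 in LowInj and 10.71, 11.25 and 11.86 in Sham, a difference of 0.72 (SE 0.20, adjusted p = 0.412). Hbb-b1 had 0.63 (SE 0.17, adjusted p = 0.376), and the pair of haemoglobin probe sets can share sequence. Alas2, the first enzyme of haem synthesis in red cells, differed by 0.25, S100a9 of neutrophils by 0.28 (0.17 without LowInj subject 38, the highest at 5.91) and S100a8 by 0.10, while Cd3d, Cd4 and Cd8a of T cells lay at -0.10, 0.00 and 0.03. The list level was 7.38 to 7.84 in LowInj and 7.28 to 7.47 in Sham. With the Hbb level as a covariate, the list medians were -0.25 for cholesterol synthesis, 0.10 for the interferon response and 0.00 for interneurons. The differences of Fabp7, Il33 and Rsad2 were then 0.28, 0.23 and 0.26 (adjusted p = 0.522, 0.521 and 0.528), and that of C1r was 0.30 (adjusted p = 0.331).

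Of 15 markers of fibroblasts and meninges 10 lay above 0 and 4 were higher at an unadjusted p under 0.05, beside 2.62% of all probe sets, with Slc13a3 at 0.24, Serping1, the inhibitor of C1r, at 0.34, Mgp at 0.14 and Col1a2 at 0.12. Dcn, a proteoglycan, had 0.17, 0.15, 0.02 and -0.05 in its probe sets, and the first of these was -0.02 with the Hbb level as a covariate. Of 19 endothelial and pericyte markers 14 lay above 0, with Slco1a4, an organic anion transporter of brain vessels, at 0.31 (adjusted p = 0.719). Of 16 microglial markers 10 lay above 0 and 0 had an unadjusted p under 0.05 by limma, beside 1.49% lower and 2.62% higher over all probe sets. C1qb lay at 0.19, P2ry12 at 0.19 and Aif1 at 0.00. The part of these cell types in the values of C1r, Il33 and the interferon genes was not tested.

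**Figure D5:**
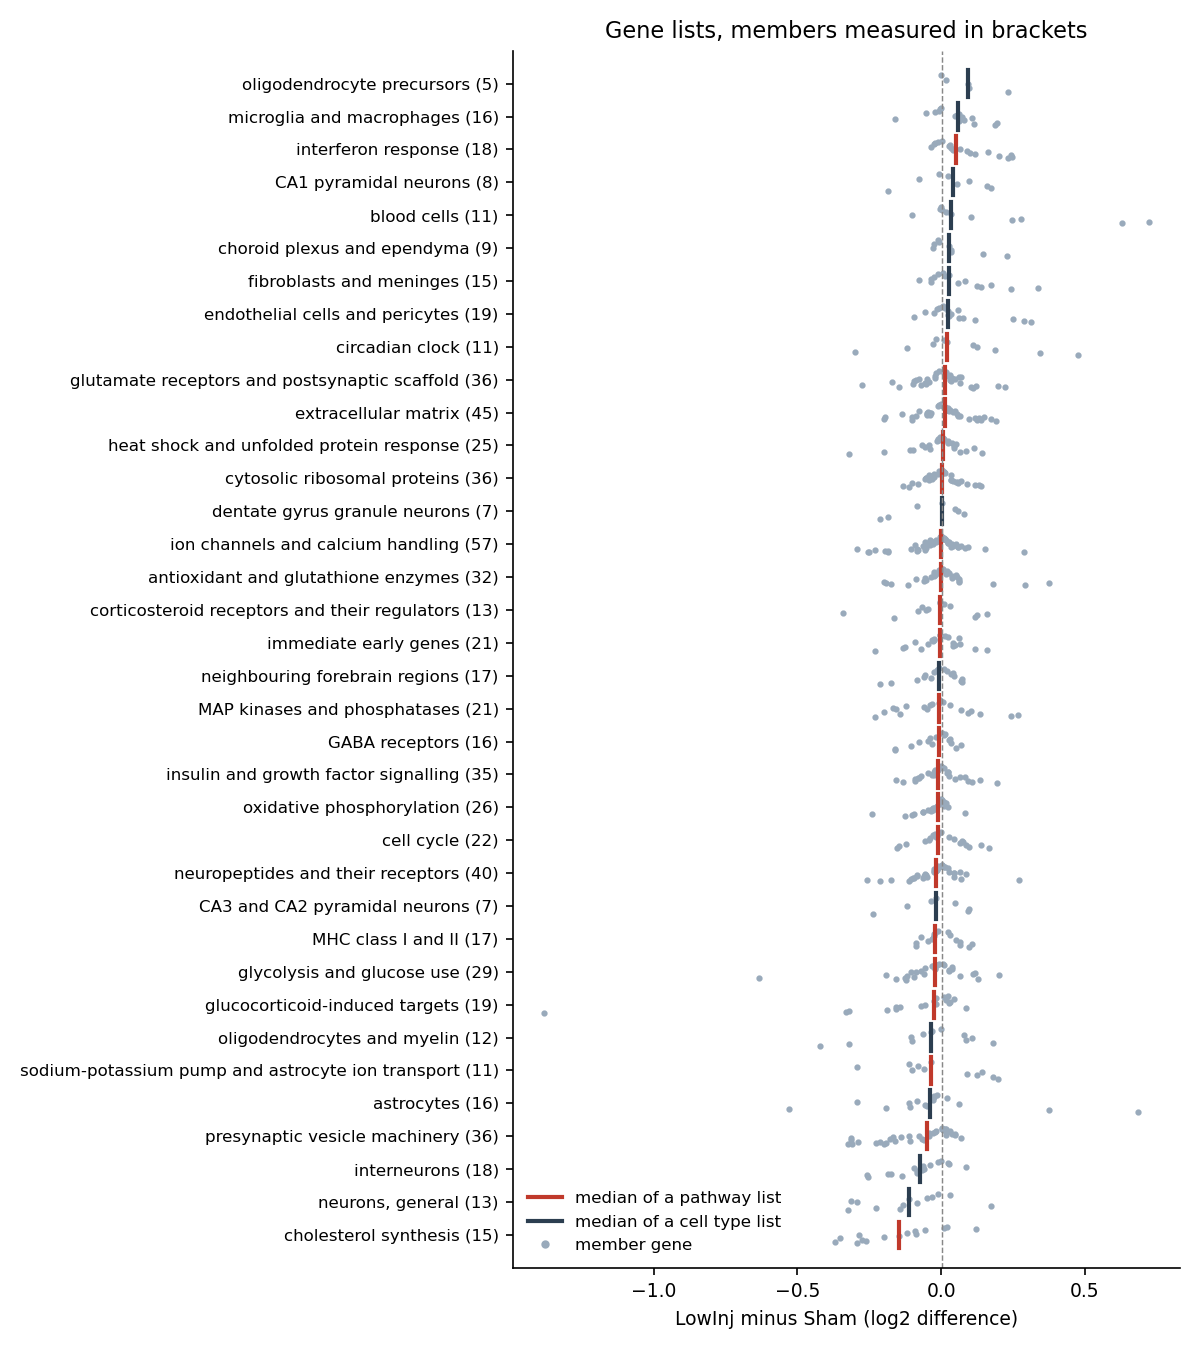
LowInj minus Sham (log2 difference) for the members of 36 gene lists, 1 point per gene, with the median of each list as a bar (pathway lists in red, cell type lists in dark blue) and the median of all probe sets (0.00) as a dashed line. Cholesterol synthesis has a median of -0.15 and general neuronal markers of -0.11; the point far to the left is Sgk1 at -1.38.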

How the data were processed

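Expression was measured on Affymetrix rat arrays, 1 per animal. The deposited series table holds log2 values made by the authors, read as log2 because the highest value, 14.37, exceeds the natural logarithm (11.09) and the log10 (4.82) of a 16-bit scanner maximum. MAS5, RMA and R 2.7.1 are named per the submitters' processing notes, and the sources used here do not say which of them made the table. No further normalization was applied. Arrays hold no read depth, and their number limits the precision.

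After 59 control probe sets were left out of 8799, 8740 entered limma 3.58.1, run under R 4.3.3, on the 20 arrays (18 residual degrees of freedom), two-sided, with Benjamini-Hochberg adjustment over all 8740 and calls at an adjusted p under 0.05. Unless another fit is named, adjusted p-values come from it. Fits of LowInj against the other adrenalectomized groups used all 39 arrays (35 residual degrees of freedom). Names came from the platform annotation, with 308 probe sets of several symbols and 1426 of none left unnamed, and 6985 of 7006 matched the GRCr8 gene table, which changed 0 symbols. The 36 gene lists (22 pathway, 14 cell type) count each gene by its probe set with the highest mean. The rule for named genes gave the 20 genes with the smallest p, since fewer than 10 genes passed, the 4 members of lowest p from each list, and 16 fixed genes; other list members were named after their values were seen. Subject numbers each belong to 1 animal. Permutation tests used 100000 resamples, with 1e-05 the smallest p they can give. The fit was tested on simulated data in which 200 probe sets were changed. It recovered 61.2% of changes of 0.3, 92.5% of 0.5 and 100% of 1, with 4 false calls. The simulated noise was independent between probe sets, which that of the arrays was not, so these shares may not hold for the data. The adjustment is also milder where 200 probe sets are changed than in the pair, where 1 passed. In the pair Fabp7 at 0.68 and Il33 at 0.51 did not pass, so the simulated shares may be too high for it. The members and lists were chosen with earlier results of these data known.

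Alternatives were a filter at the 30th percentile, all 39 arrays, quantile normalization, median centring, trended and robust variances, array weights, the 3' to 5' differences or subject order as covariates, a minimum fold of 1.1, leaving out each array, and, added after seeing the data, the 3' to 5' covariates in 39 arrays, the Hbb level, and leaving out the 3 arrays apart on the first component.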

Additional observations from a re-analysis of the deposited data

Results flagged for a closer look

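Among 35 probe sets tested in both groups, 70 tests of a single rat far from its group gave 4 such values, in 3 rats, where chance gives about 1 in 20 groups, or 3.5 of 70. Dbp in Sham subject 6 was 8.25, with the nearest other Sham rat at 7.86. Mal in the same rat was 9.83, with the nearest at 10.18. Grifin in LowInj subject 34 was 7.73, with the nearest LowInj rat at 7.46. Klf9 in Sham subject 1 was 8.30, with the nearest Sham rat at 8.61. In each case the gap, as a share of the group's range, was above Dixon's 95% critical value.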

How the results depend on the processing

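The pair gave 1 call, and 26 with array weights, 11 with all 39 arrays, 9 with the 3' to 5' covariates, and, as alternatives chosen after seeing the data, 18 with 39 arrays and those covariates, 4 without the 3 arrays apart on the first component (Dbp and Fabp7 joined) and 2 with the Hbb level. Sgk1 was called in each of these except the last, where Msmo1 and an unnamed probe set passed. Leaving out 1 array gave 1 to 3 calls, with 3 without Sham subject 6 (Dbp joined), and 2 without LowInj subject 33 (C1r) or 39 (Tnfrsf11b). The cause was not tested. Sgk1 stayed called without any 1 array, between -1.49 and -1.29 (adjusted p 0.000169 to 0.00846). Values near 0 changed sign. With the Hbb level Nr3c1 was -0.0346, Nr3c2 -0.0284, the further Hk2 probe set 0.0164 and Dcn -0.0171. Hsd11b1 was 0.0162 without those 3 arrays, 0.00923 with quantile normalization and 0.0512 and 0.0569 with the 3' to 5' covariates in 20 and 39 arrays. Without 1 array, the other Nr3c1 probe set ranged from -0.00722 to 0.0209, Hsd11b1 from -0.0432 to 0.0258 and Sult1a1 from -0.00746 to 0.0688. The fit without arrays set apart in their 3' to 5' difference was not run, since 0 were set apart by Dixon's critical value within their group. No paired analysis was possible because each subject number belongs to 1 animal and the groups share none.

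The design cannot separate adrenalectomy, pellet, drinking fluid and injections, and the sources used here give no day of death or batch. Several probe sets of a gene differed in size, and in several genes, among them Hk2, Irf7, Dcn and Nr3c1, also in sign.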
